A study of Homo sapiens with 8 samples.

Results

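The genes described here are 10 imprinted genes, H19, MEST, IGF2, DLK1, MEG3, CDKN1C, GRB10, PEG3, PEG10 and NNAT, out of 18732 genes tested on exon arrays. They were taken by name, and all 10 were measured. H19 was selected on its response to retinoic acid (RA) in these data and MEST on the way that response differed after depletion of RNF20, so the values that chose them are given as a description with no test. The cells were NTera2/D1, a human embryonal carcinoma line that leaves its stem-cell-like state under RA, and every group was this 1 line. The 4 groups of 2 arrays each were siLacZ with DMSO, siRNF20 with DMSO, siLacZ with RA and siRNF20 with RA. LacZ is a bacterial gene whose siRNA serves as the control, DMSO is the solvent, RA was given at 10 µM and the treatment lasted 72 h. RNF20 is the ubiquitin ligase that adds a single ubiquitin to histone H2B, and the comparisons ask what RA changes, what loss of RNF20 changes, and whether the RA response differs without RNF20. The labels call the arrays biological duplicates and number them GF117 and GF120.

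An imprinted gene is read mainly from the copy inherited from one parent, and the silent copy is held by DNA methylation set in the germ line. Imprinted genes sit in clusters that share a control region. H19, a long noncoding RNA read from the maternal copy, lies beside IGF2, a fetal growth factor read from the paternal copy, and MEG3 and DLK1 form such a pair on another chromosome. Many of these genes act on growth before birth and are switched off in most tissues afterwards, while tumours of germ cell origin often carry altered imprints. The arrays measure RNA from both copies together, so that no parental origin is measured.

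Sequences from RefSeq (GRCh38.p14) are shown for H19 and MEST, the members that the account turns on. The first set holds the 250 bases before 3 annotated starts, the start of H19 at chr11:2001267-2001516 on the minus strand and 2 starts of MEST at chr7:130485925-130486174 and chr7:130491808-130492057 on the plus strand. MEST is shown at 2 starts because its array rows did not move alike. Capitals mark CG pairs, the sites at which DNA methylation holds an imprint.
H19 start: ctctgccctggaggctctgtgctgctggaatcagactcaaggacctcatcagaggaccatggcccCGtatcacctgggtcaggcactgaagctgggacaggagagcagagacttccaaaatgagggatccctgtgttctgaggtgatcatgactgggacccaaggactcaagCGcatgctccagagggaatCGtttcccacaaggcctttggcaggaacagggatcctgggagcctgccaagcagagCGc
MEST first start: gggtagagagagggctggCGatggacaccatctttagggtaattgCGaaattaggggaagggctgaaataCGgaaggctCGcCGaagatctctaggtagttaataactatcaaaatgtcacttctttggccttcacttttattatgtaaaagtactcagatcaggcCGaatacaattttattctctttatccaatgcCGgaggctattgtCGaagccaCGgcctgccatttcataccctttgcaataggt
MEST later start: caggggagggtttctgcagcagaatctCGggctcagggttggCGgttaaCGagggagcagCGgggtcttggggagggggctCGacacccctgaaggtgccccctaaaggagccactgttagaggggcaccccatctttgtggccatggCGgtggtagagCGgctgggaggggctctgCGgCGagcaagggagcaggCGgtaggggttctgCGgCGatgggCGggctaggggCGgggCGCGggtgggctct
The H19 window held 4 CG pairs, and 70.7% of 35116 RefSeq promoter windows of the same length held at least as many. The first MEST window held 9 and the later one 16, a count that 41% of the windows reached or passed. The letters AGGTCA, a form of the half-site that RA receptors bind, were searched on both strands. They were in none of these 3 windows, while 12.1% of all windows held them. A window without these letters shows only that they are not within those 250 bases. Other forms of the half-site were not searched. Windows were also listed for MEG3 and GRB10 among the 10 members. A GRB10 window at chr7:50732354-50732603 held AGGTCA, read on the opposite strand, at 2 places. The other listed windows of these members, further MEST starts included, did not hold it.

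Both genes also carry a microRNA inside their annotated span, MIR675 in H19 and MIR335 in MEST. The mature sequences are shown to identify what is made from these transcripts, with the seed (bases 2 to 8, which pair with a target) in capitals. MIR675 lies at chr11:1996800-1996822 (5p) and chr11:1996768-1996787 (3p) on the minus strand, and MIR335 at chr7:130496126-130496148 (5p) and chr7:130496162-130496183 (3p) on the plus strand.
hsa-miR-675-5p: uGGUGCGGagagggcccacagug
hsa-miR-675-3p: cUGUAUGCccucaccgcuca
hsa-miR-335-5p: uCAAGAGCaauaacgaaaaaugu
hsa-miR-335-3p: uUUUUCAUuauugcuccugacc
The 4 seeds differ from one another. The levels of these microRNAs were not analysed here.

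RNF20, the knockdown target, checks the labels. On the log2 intensity scale used throughout, it read 8.24 and 8.09 in DMSO siLacZ, 6.48 and 5.98 in DMSO siRNF20, 8.10 on the GF120 array of RA siLacZ, and 6.27 and 5.89 in RA siRNF20. All 4 siRNF20 arrays lay below these 3 control arrays. The differences of -1.94 in DMSO and -2.02 in RA had adjusted p of 0.237 and 0.11 in limma and were not called. With the GF number as a block in the fit, both differences were called, at -1.94 in DMSO and -2.19 in RA. The array labelled GF117 RA siLacZ read 6.08 for RNF20, within the siRNF20 range. That array also correlated at only r = 0.078 to 0.185 with the others over all genes, against 0.908 to 0.974 among the other 7. The fit given first therefore leaves it out, and values with all 8 arrays stand beside the results. The RA siLacZ group then holds 1 array, GF120, that is assumed to vary like the others. Contrasts with that group are therefore not balanced over the GF numbers. A gene was called where limma's p, adjusted by the Benjamini-Hochberg method over all 18732 genes, was below 0.05. That rule called 3.91% of the genes with RA in siLacZ cells (733) and 3.92% with RA in siRNF20 cells (734). With all 8 arrays it called 0 genes in each of the 5 comparisons, with 1510, 504, 27, 560 and 113 at an unadjusted p below 0.05 for RA in siLacZ, RA in siRNF20, siRNF20 in DMSO, siRNF20 in RA and the difference between RA responses.

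H19 was high with RA, and less so where RNF20 was depleted. It read 5.29 and 5.79 in DMSO siLacZ and 5.40 and 5.57 in DMSO siRNF20. With RA it read 11.74 on the siLacZ array and 9.59 and 10.45 in RA siRNF20. Every RA array lay above every DMSO array, and the RA siLacZ array lay above both RA siRNF20 arrays. In linear units the H19 intensity was 39.2 to 55.5 on the 4 DMSO arrays, 3430 on the RA siLacZ array, and 772 and 1400 with RA and siRNF20. The log2 difference with RA was 6.20 (SE 0.35), or 73.6-fold, in siLacZ cells and 4.54 (SE 0.29), or 23.3-fold, in siRNF20 cells. With RA, siRNF20 cells stood 1.72 below siLacZ cells on the log2 scale, a difference of -1.72 (SE 0.35), and the RA responses differed by -1.66 (SE 0.45). These values chose H19 or come from the contrasts that did, and carry no test. In whole cultures such as these, fewer cells that make a transcript and less of it per cell cannot be told apart.

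The array labelled GF117 RA siLacZ, left out of the fit, read low or at odds for many genes. It read H19 at 10.86, between the other RA values. That is a description and no support, since H19 was chosen on its RA response. The H19 rows of that array ranged from 9.37 to 12.07. With all 8 arrays the difference with RA in siLacZ cells was 5.76 and the difference between the responses -1.22. Within GF120 alone, where all 4 groups have an array, H19 rose by 5.95 in siLacZ and by 4.89 in siRNF20 cells, a difference of -1.06 that is smaller than with both numbers. Of 18 array rows that measure H19, 17 were bright enough to use. In all 17 the 3 RA arrays lay above the 4 DMSO arrays. All 17 were lower with siRNF20 in RA. In 4 rows a DMSO array lay at or below 3.97, the log2 threshold under which a row's mean counted as dim, so no size is given for them. The other 13 ranged from 2.72 to 7.45 with RA in siLacZ and from 0.98 to 6.44 in siRNF20 cells. Rows of one gene are read from the same RNA and are not replicates.

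Without RA, depletion of RNF20 did not move H19 by a detectable amount. The log2 difference between siRNF20 and siLacZ in DMSO was -0.06 (SE 0.29, 95% interval -0.71 to 0.58, adjusted p = 1, limma). This contrast shares its DMSO arrays with those that chose H19. Of the 13 rows above the threshold on every DMSO array, 8 were higher and 5 lower with siRNF20, between -1.29 and 0.63.

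The 10 markers of undifferentiated embryonal carcinoma cells, all measured, summed to 10400 to 11400 intensity units on the DMSO arrays and to 6250 to 8050 with RA, and 5 of the 10 were called lower in siLacZ and 6 in siRNF20 cells. The sum was lowest, 6250, on the RA siLacZ array, where H19 was highest. Single markers did not all follow the sum. For siRNF20 against siLacZ in RA, 8 of the 10 were above 0, while POU5F1 gave -0.50 and SALL4 -0.27. Not all of the 10 fell: LIN28A, LIN28B, SALL4 and PODXL gave -0.25 to 0.10 with RA in siLacZ and -0.14 to 0.27 in siRNF20 cells. Over all genes 3.91% and 3.92% were called with RA in either direction. The 6 neuron markers summed to 381 to 512 with DMSO and to 682 to 781 with RA, and the 1 called was DCX, higher by 2.55 (adjusted p = 0.00041) in siLacZ and by 1.55 (0.00171) in siRNF20 cells in limma. The medians of these 6 were 0.06 and 0.18, and the other 5 gave -0.58 (ELAVL3) to 0.41 (TUBB3). Mesenchyme markers, 6 measured of 7, summed to 275 to 363 over the 7 arrays, trophoblast markers (6 of 7) to 415 to 530, yolk sac and endoderm markers (8) to 350 to 445, and muscle markers (5) to 183 to 264, with DMSO and RA arrays overlapping in each. Among these lists the mesenchyme marker COL1A1 was called higher in siLacZ cells (1.30, adjusted p = 0.0331) and the trophoblast marker GATA3 in siRNF20 cells (1.55, adjusted p = 0.0246, limma), and 0 yolk sac, endoderm or muscle markers were called with RA. Of the 6 mesenchyme markers 2 were above 0 with RA in siLacZ and 4 in siRNF20 cells, and POSTN was lowest at -1.87 and -1.24. Of the 6 trophoblast markers 2 were above 0 in each background, with medians of -0.33 and -0.12. The single blood marker PTPRC read 17.2 to 33.2 and was not called. The part of these markers in the H19 and MEST values was not tested.

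MEST encodes a protein of the alpha/beta hydrolase fold family and is read from the paternal copy. It read 7.07 and 6.70 in DMSO siLacZ, 8.02 and 7.90 in DMSO siRNF20, 9.89 on the RA siLacZ array, and 9.33 and 8.95 in RA siRNF20. On these 7 arrays the 4 groups did not overlap: siRNF20 cells were higher than siLacZ cells in DMSO and lower in RA. The log2 difference with RA was 3.01 (SE 0.24), or 8.05-fold, in siLacZ and 1.18 (SE 0.20), or 2.26-fold, in siRNF20 cells. The responses differed by -1.83 (SE 0.31), and siRNF20 against siLacZ in RA gave -0.75 (SE 0.24). The rule chose MEST on this difference, and these values carry no test.

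In DMSO the depletion of RNF20 alone gave a MEST difference of 1.08 (SE 0.20, 95% interval 0.63 to 1.53). Its unadjusted p was 0.000363 and its adjusted p over all genes was 1 in limma, so that it was not called. The contrast uses the same DMSO arrays as the difference between responses that selected the gene, and a high DMSO siRNF20 value lowers that difference, so it is not independent of the selection. It was 0.96 within GF117 and 1.20 within GF120. The array labelled GF117 RA siLacZ read MEST at 6.06, below every other array. With all 8 arrays the difference with RA in siLacZ cells was 1.07, siRNF20 in RA turned to 1.16 and the difference between responses was 0.09. The smaller MEST response in siRNF20 cells was thus present only with that array left out. The difference for H19 kept its direction with that array included. Both genes were chosen on these responses, and the array correlated poorly with the others, so neither response is tested by it.

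The array rows of MEST did not move alike. Of 18 rows 16 were used. In 1 row, which lay below the dim-row threshold on DMSO arrays, no size is given. In 12 the difference with RA in siLacZ cells was 2.23 to 3.27, while the 3 rows with the lowest numbers on the array gave 0.03, 0.43 and 1.34. The same 12 rows moved by 0.88 to 1.47 with RA in siRNF20 cells and by 0.65 to 1.39 with siRNF20 in DMSO. In 11 of the 16 rows both DMSO siRNF20 arrays lay above both DMSO siLacZ arrays, and the difference between responses was below 0 in 15. Which transcript each row reads was not analysed here.

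**Figure D1:**
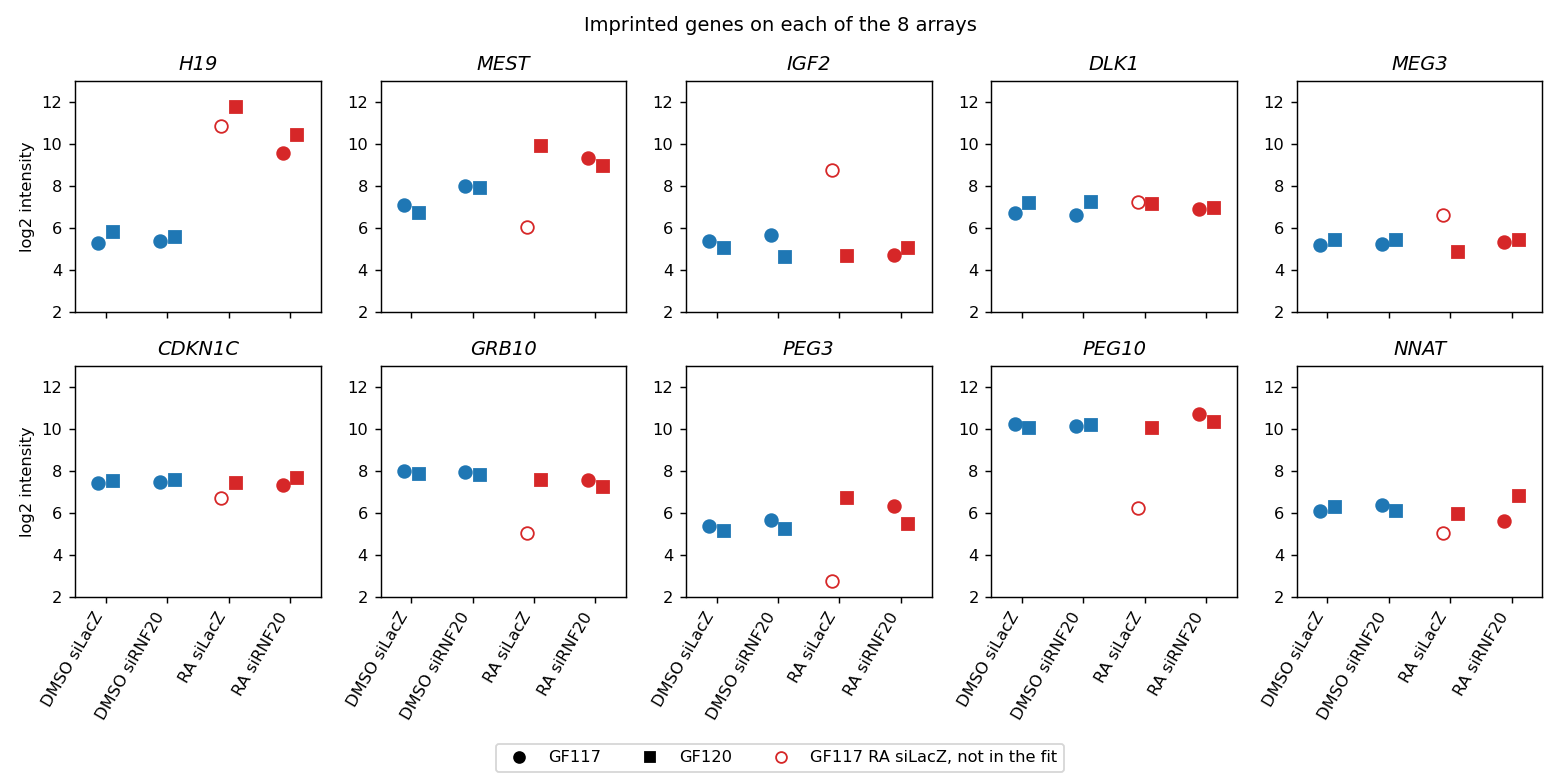
Log2 intensity of the 10 imprinted genes (y axis, 2 to 13) on each of the 8 arrays by group (x axis), with circles for GF117, squares for GF120, blue for DMSO, red for RA, and an open circle for the array labelled GF117 RA siLacZ, which the fit leaves out. H19 reads 5.29 to 5.79 with DMSO and 9.59 to 11.74 with RA, and MEST forms 4 steps on the 7 fitted arrays. Of the 8 others, PEG3 reads 5.13 to 6.72 and NNAT 5.64 to 6.81 on those arrays.

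**Figure D2:**
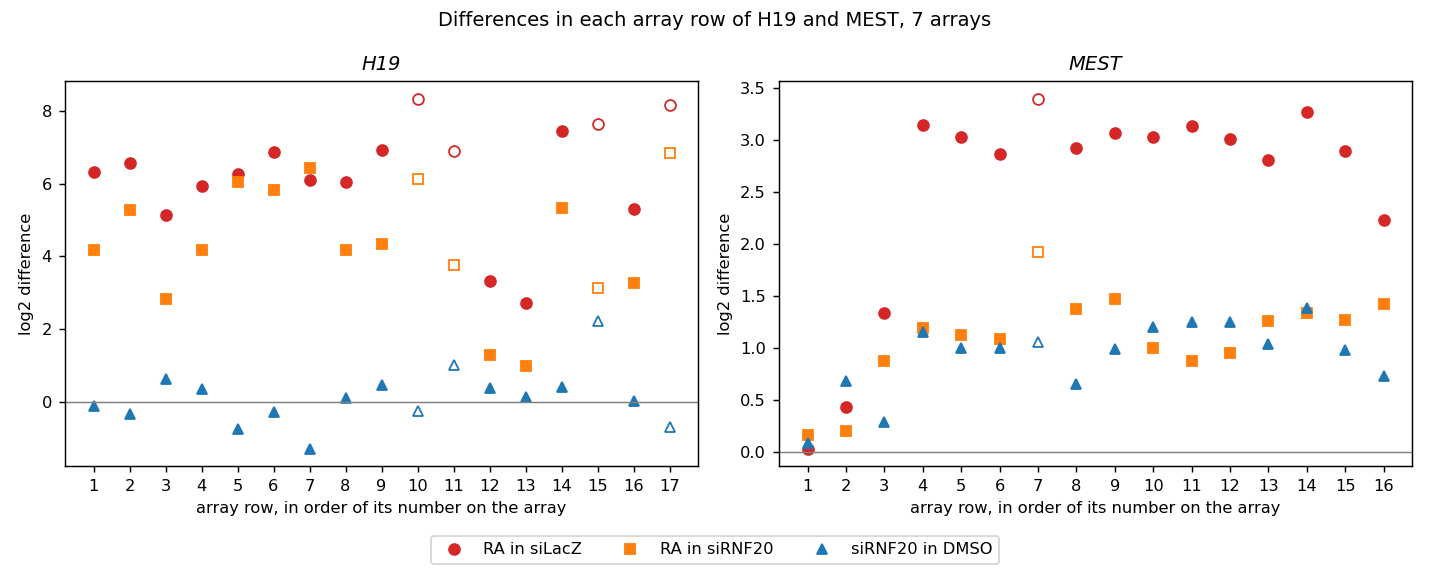
Log2 difference (y axis) in each used array row of H19 (17 rows, left) and MEST (16 rows, right), in order of the row's number (x axis), for RA in siLacZ (red circles), RA in siRNF20 (orange squares) and siRNF20 in DMSO (blue triangles), 7 arrays, with open symbols for rows that have a DMSO array at or below the dim-row threshold of 3.97 (4 of H19, 1 of MEST). Each H19 row lies above 0 with RA in both backgrounds, while the 3 MEST rows of lowest number give 0.03, 0.43 and 1.34 against 2.23 to 3.27 in the 12 other filled rows with RA in siLacZ.

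The 8 other members were tested in all 5 comparisons, and none was called in any in the fit given first. Under some other settings PEG3 was called, as given below. Beside the 3.91% and 3.92% called over all genes with RA, a count of 0 among 8 genes lies near the background. With siRNF20 in DMSO 0 genes were called over the whole array, which is 0%, and 519 had an unadjusted p below 0.05. With siRNF20 in RA 2 genes were called, or 0.0107%, and neither was a member. For the difference between RA responses 0 genes were called, again 0%, with 737 at an unadjusted p below 0.05. The median difference of the 8 members was -0.15 with RA in siLacZ and 0.00 in siRNF20 cells, against -0.05 and -0.03 over all genes.

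IGF2, which shares its control region with H19, showed no difference that passed the test while H19 was high. It read 5.40 and 5.05 in DMSO siLacZ, 5.65 and 4.60 in DMSO siRNF20, 4.65 on the RA siLacZ array, and 4.69 and 5.02 in RA siRNF20. The RA and DMSO arrays overlapped. The difference with RA was -0.58 (95% interval -1.59 to 0.44) in siLacZ and -0.27 (-1.10 to 0.56) in siRNF20 cells, with adjusted p of 0.617 and 0.835 in limma. The array labelled GF117 RA siLacZ read 8.75, far above the others, and with it the siLacZ difference was 1.51 in place of -0.58. Only 7 of 12 IGF2 rows were used, of which 1 read 10.31 to 11.39 and the other 6 read 2.51 to 6.48 on the 7 arrays. The bright row gave -0.40 and 0.08 with RA in the 2 backgrounds. A further 5 used rows that IGF2 shares with the read-through gene INS-IGF2 gave -0.51 and -0.35, neither called. The 1 used row shared with INS as well went the other way, with 0.46 in siLacZ and 1.03 (95% interval 0.38 to 1.69) in siRNF20 cells, neither called.

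DLK1 and MEG3 are the paternal and maternal members of a second pair. DLK1, a membrane protein related to the Notch ligands, read 6.73 and 7.18 in DMSO siLacZ, 6.61 and 7.24 in DMSO siRNF20, 7.13 with RA siLacZ, and 6.90 and 6.95 in RA siRNF20. The GF117 and GF120 arrays of the DMSO groups differed by more than any pair of group means. MEG3, a long noncoding RNA, read 5.18 and 5.41, 5.25 and 5.43, 4.85, and 5.34 and 5.43 in the same order. With RA the DLK1 difference was 0.18 (-0.53 to 0.88) and 0.00 (-0.57 to 0.58), and that of MEG3 was -0.44 (-1.13 to 0.24) and 0.05 (-0.51 to 0.60), in siLacZ and siRNF20 cells. Of 19 used MEG3 rows 9 were higher and 10 lower with RA in siLacZ cells. The MEG3 value in siLacZ was 0.45 with all 8 arrays.

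CDKN1C encodes p57, an inhibitor of cyclin-dependent kinases that is read from the maternal copy and lies in the next imprinted cluster to H19 and IGF2. It read 7.44 and 7.55 in DMSO siLacZ, 7.48 and 7.60 in DMSO siRNF20, 7.44 with RA siLacZ, and 7.35 and 7.67 in RA siRNF20. The RA siRNF20 pair alone spanned the whole range of the 7 values. The difference with RA was -0.05 (-0.58 to 0.47) in siLacZ and -0.03 (-0.46 to 0.40) in siRNF20 cells, and both signs turn under other settings of the processing. NNAT, which encodes a small membrane protein of the developing brain, read 6.08 and 6.29, 6.39 and 6.09, 5.95, and 5.64 and 6.81 in the same order. The RA siRNF20 pair of NNAT was as far apart as its whole range. Its differences of -0.23 (-1.18 to 0.72) and -0.01 (-0.79 to 0.76) rest on 2 used rows of 5.

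GRB10 is an adaptor that binds the insulin and IGF1 receptors and dampens their signal. It read 8.0 and 7.88 in DMSO siLacZ, 7.94 and 7.80 in DMSO siRNF20, 7.58 on the RA siLacZ array, and 7.56 and 7.23 in RA siRNF20. All 3 RA arrays lay below all 4 DMSO arrays. The difference was -0.36 (-0.87 to 0.16, adjusted p = 0.523) in siLacZ and -0.47 (-0.90 to -0.05, adjusted p = 0.259) in siRNF20 cells, neither called by limma. Its 29 used rows were lower with RA in 26 cases in siLacZ and in all 29 in siRNF20 cells.

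PEG10, a gene derived from a retrotransposon that is needed in the placenta, read 10.26 and 10.04 in DMSO siLacZ, 10.14 and 10.22 in DMSO siRNF20, 10.08 with RA siLacZ, and 10.72 and 10.34 in RA siRNF20. The 2 RA siRNF20 arrays were the highest. With RA the difference was -0.07 (-0.50 to 0.35) in siLacZ and 0.35 (0.00 to 0.69, adjusted p = 0.323) in siRNF20 cells, and siRNF20 against siLacZ in RA gave 0.45 (0.03 to 0.87, adjusted p = 0.604). In siRNF20 cells all 21 rows were higher with RA, and in siLacZ cells 10 were higher and 10 lower. The test of the difference between the PEG10 responses did not pass, with an adjusted p of 0.999 in limma. The array labelled GF117 RA siLacZ read PEG10 at 6.24.

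PEG3, a zinc finger protein read from the paternal copy, had the largest RA difference of the 8. It read 5.41 and 5.13 in DMSO siLacZ, 5.65 and 5.24 in DMSO siRNF20, 6.72 on the RA siLacZ array, and 6.35 and 5.46 in RA siRNF20. The RA siRNF20 pair overlapped the DMSO arrays. The difference was 1.45 (0.58 to 2.33, adjusted p = 0.0828) in siLacZ and 0.46 (-0.25 to 1.18, adjusted p = 0.59) in siRNF20 cells. Without the RA siRNF20 GF117 or GF120 array the siLacZ difference was called, at an adjusted p as low as 0.0276, and with all 8 arrays it was -0.52. Under the stricter filter, which keeps 1 row, it was -0.01, and PEG3 was called in siRNF20 cells instead (1.03, adjusted p = 0.0167). With the GF number as a block in the fit, the siLacZ difference was 1.71 and was called. Differences of PEG3 with siRNF20 in RA (-0.82) and between responses (-0.99) were not called.

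These PEG3 values come from only 3 array rows named for PEG3 alone, and they disagree. With RA in siLacZ the rows gave -0.63, -0.01 and 1.45, and in siRNF20 cells 0.66, 1.03 and 0.79. Most rows at this locus are named for both PEG3 and ZIM2, a neighbour that shares its first exons, and 23 of 27 such rows were used. Their median read 8.68 and 8.55 in DMSO siLacZ, 8.60 and 8.62 in DMSO siRNF20, 9.27 with RA siLacZ, and 9.58 and 9.37 in RA siRNF20. Every RA array lay above every DMSO array. The 1566 features of shared rows were added to the fit (20298 in all), a choice made after seeing the data. The difference was 0.66 (SE 0.19, adjusted p = 0.105) in siLacZ and 0.87 (SE 0.15, adjusted p = 0.0149) in siRNF20 cells, so that the shared rows rose with RA in siRNF20 cells. That call was lost without DMSO siRNF20 GF117 (adjusted p = 0.127), without DMSO siRNF20 GF120 (0.101) and without RA siRNF20 GF117 (0.0646), and the array labelled GF117 RA siLacZ turned the siLacZ value to -0.81. The responses of the shared rows differed by 0.20, with an adjusted p of 0.999 in limma.

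**Figure D3:**
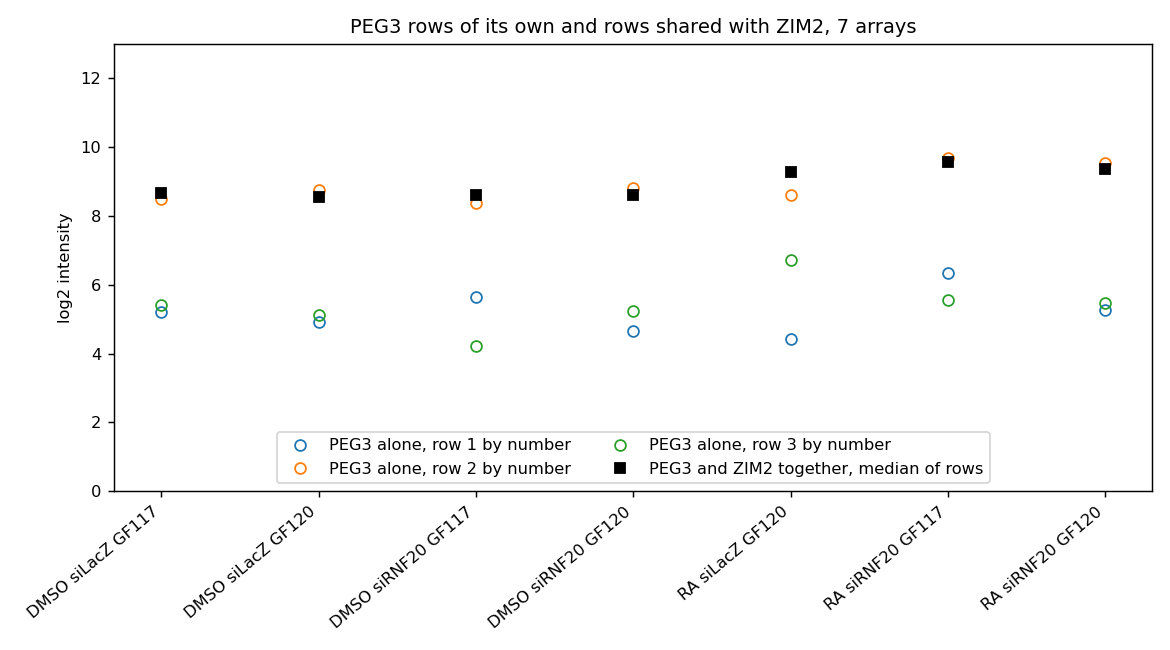
Log2 intensity (y axis, from 0) of the 3 rows named for PEG3 alone (open circles) and the median of the 23 used rows shared with ZIM2 (black squares) on the 7 fitted arrays (x axis). The shared rows read 8.55 to 8.68 with DMSO and 9.27 to 9.58 with RA, while the 3 rows of PEG3 alone differ from one another in level and direction.

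With siRNF20 in DMSO the differences of the 8 members lay between -0.10 and 0.17. The intervals were wide, for example -0.93 to 0.73 for IGF2. None was called. The comparisons of siRNF20 called few or no genes over the whole array, so the lack of a call says little about the members. With RA the differences between siRNF20 and siLacZ ranged from -0.82 for PEG3 to 0.54 for MEG3, and those between the RA responses from -0.99 for PEG3 to 0.49 for MEG3, none called. Across the 7 arrays the H19 values correlated with those of MEST at Pearson r = 0.90, of PEG3 at 0.76, of GRB10 at -0.85 and of IGF2 at -0.54. These are descriptions over 7 arrays that share the split between RA and DMSO.

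The genes around the members were read from a list of 56 further imprinted genes, of which 50 were measured. With RA in siLacZ cells 2 of the 50 were called higher and 0 lower, beside 3.91% called over all genes, and in siRNF20 cells 5 were called higher and 1 lower, beside 3.92% over all genes. These counts include HYMAI in siLacZ and CALCR in siRNF20 cells, which lay below the dim-row threshold of 3.97 on both DMSO arrays of that background and had passed the filter through brighter arrays, so that 1 and 4 genes called higher were above it. The median of the 50 was -0.04 in siLacZ and 0.08 in siRNF20 cells. None was called in the 3 comparisons of siRNF20, which called few or no genes over the whole array.

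HYMAI, a noncoding RNA read within the imprinted PLAGL1 locus, read 2.99 and 2.79 in DMSO siLacZ and 5.57 on the RA siLacZ array. It read 4.28 and 4.0 in DMSO siRNF20 and 5.93 and 4.89 in RA siRNF20. The calcitonin receptor CALCR read 3.82 and 3.70 in DMSO siRNF20 and 5.95 and 5.34 in RA siRNF20. These values describe HYMAI and CALCR with no fold, since their DMSO levels were dim. PLAGL1 itself, a zinc finger factor that restrains growth, rose in siRNF20 cells by 1.72 (SE 0.41, adjusted p = 0.0496), with 1.83 in siLacZ cells (adjusted p = 0.0855). RB1, the retinoblastoma cell cycle regulator, rose in both, by 1.36 (adjusted p = 0.0212) in siLacZ and 0.96 (0.0398) in siRNF20 cells. In siRNF20 cells the homeobox gene DLX5 rose by 1.63 (adjusted p = 0.0388) and the zinc finger gene ZDBF2 by 0.95 (0.0387). PHLDA2, which restrains placental growth and lies in the CDKN1C cluster, fell by 0.96 there (0.0486), with -1.13 in siLacZ cells (0.0573). All are limma's adjusted p. RB1 in siLacZ cells lost its call without either DMSO siLacZ array (adjusted p up to 0.0982), and so did HYMAI (up to 0.0679). CALCR was lost without either RA siRNF20 array, RA siLacZ GF120 or DMSO siRNF20 GF117 (up to 0.47). DLX5, ZDBF2 and RB1 were called there only without RA siLacZ GF120 or RA siRNF20 GF120, and lost without each of the 5 others (up to 0.206, 0.183 and 0.247). PLAGL1 was called only without RA siRNF20 GF120 and PHLDA2 only without RA siLacZ GF120, and both were lost without each of the 6 others (up to 0.176 and 0.271). Without RA siRNF20 GF117 the values were 1.07 for PLAGL1, 1.05 for DLX5 and 0.63 for ZDBF2. Of the 6 calls in siRNF20 cells 0 were left with no filter on dim rows and 1 with no intensity trend, and PHLDA2 was at 0.04 under the stricter filter. With the array labelled GF117 RA siLacZ included, RB1 in siLacZ turned to -1.29 and none was called. No difference between the 2 backgrounds passed the test for any of them, nor for any gene over the whole array.

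Apart from CALCR, in the PEG10 cluster, and PHLDA2, the genes named here for their place beside a member were not called. Beside IGF2 the antisense IGF2-AS gave 0.69 with RA in siRNF20 and INS -0.45 in siLacZ cells. Beside MEST, the coat protein gene COPG2 gave -0.81 (adjusted p = 0.0916) and the antisense RNA MESTIT1 -0.63 in siLacZ cells, while MEST itself gave 3.01. In the cluster of DLK1 and MEG3, RTL1 gave -0.37 and the deiodinase DIO3 0.33 in siLacZ cells. Beside PEG3, the noncoding MIMT1 gave 1.17 with RA in siRNF20 (adjusted p = 0.0651, and called without either DMSO siLacZ array at 0.0461 at the lowest) and USP29 -0.67 in siLacZ. BLCAP, which surrounds NNAT, gave -0.74 in siRNF20 (adjusted p = 0.0536) and DDC, beside GRB10, 0.15 in siLacZ cells. Whether the array tells antisense partners from the genes they overlap was not analysed here.

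**Figure D4:**
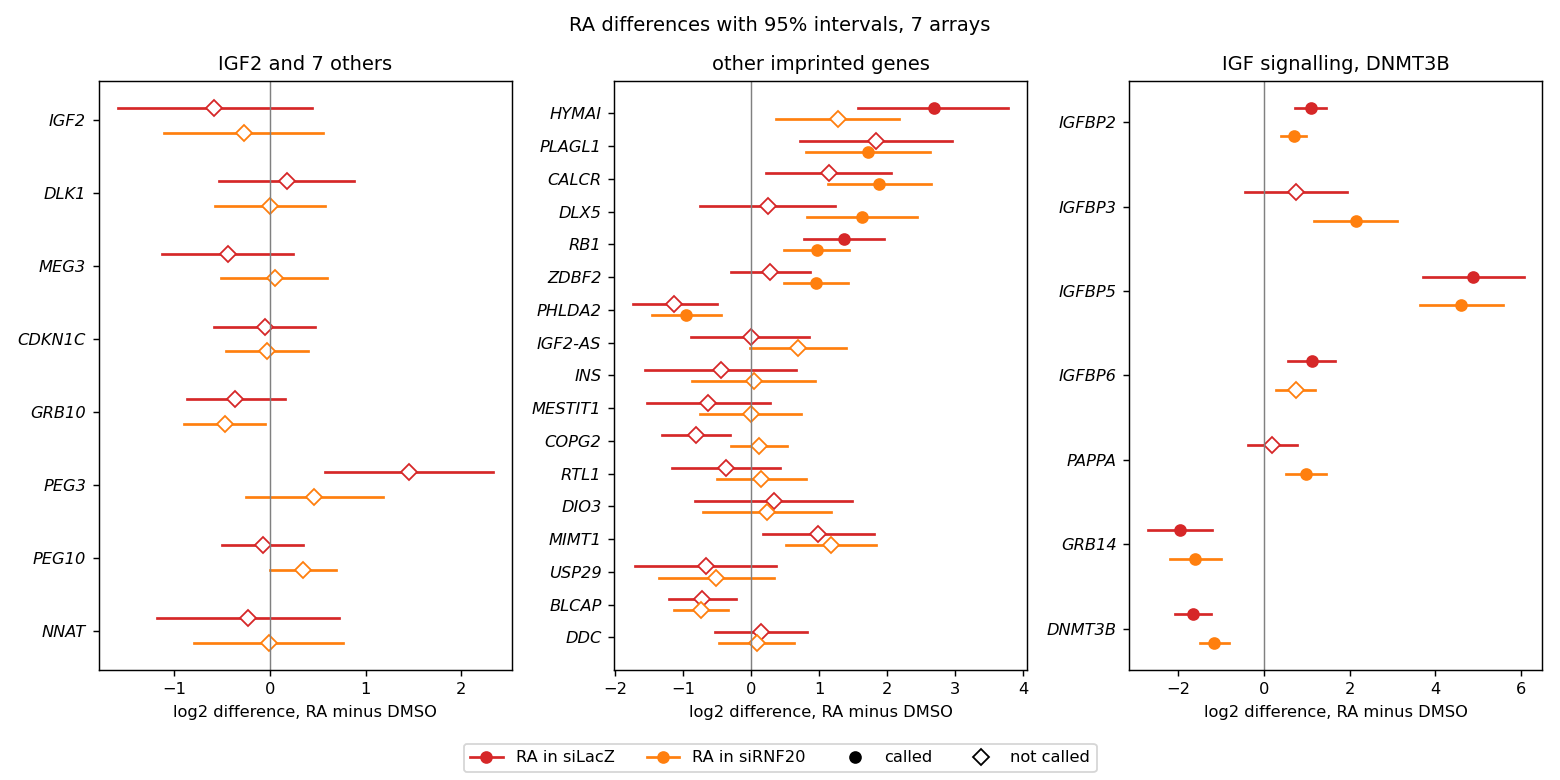
Log2 difference, RA minus DMSO (x axis), with 95% intervals from limma on 7 arrays, in siLacZ (red) and siRNF20 (orange) cells, for the 8 members other than H19 and MEST (left), other imprinted genes (middle) and named genes of IGF signalling with DNMT3B (right), with filled circles for called and open diamonds for uncalled genes. None of the 8 members is called, RB1 (1.36) is called in siLacZ cells, HYMAI in siLacZ and CALCR in siRNF20 cells are drawn as called though dim on their DMSO arrays, and IGFBP5 (4.88 and 4.60) lies farthest from 0.

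IGF2, GRB10 and H19 belong to or border on IGF signalling, in which binding proteins hold the growth factors and receptors pass on their signal. Of 25 genes listed for it, all measured, 3 were called higher and 1 lower with RA in siLacZ cells and 4 higher and 1 lower in siRNF20 cells, against 3.91% and 3.92% over all genes, and the list's medians were 0.00 and 0.04. IGFBP5, a binding protein, rose by 4.88 (SE 0.52, adjusted p = 0.001) and 4.60 (SE 0.43, adjusted p = 0.000398), from 3.79 to 5.10 with DMSO to 8.55 to 9.75 with RA, the lowest DMSO array lying below the dim-row threshold of 3.97. Another binding protein, IGFBP2, rose by 1.09 (adjusted p = 0.0052) and 0.69 (0.0185). IGFBP6 rose in siLacZ cells by 1.11 (0.0397), and IGFBP3 and PAPPA, a protease that cleaves binding proteins, rose in siRNF20 cells by 2.14 (0.0244) and 0.98 (0.0309). The IGFBP3 value was 1.38 without RA siRNF20 GF117 and up to 2.96 without other single arrays. GRB14, an adaptor of the same family as GRB10, fell by 1.95 (0.011) and 1.60 (0.0105). These adjusted p are limma's. The calls of IGFBP5 in both backgrounds and of IGFBP2 in siLacZ cells were kept without each array that could be left out. For the siLacZ calls this excludes RA siLacZ GF120, the only array of its group. IGFBP2 and GRB14 in siRNF20 cells were each lost without either DMSO siRNF20 array and without RA siRNF20 GF120 (adjusted p up to 0.191 and 0.0892), and GRB14 in siLacZ without DMSO siLacZ GF117 (0.0725). IGFBP6 was lost without any of the 4 DMSO arrays (up to 0.161), IGFBP3 without either DMSO siRNF20 array or DMSO siLacZ GF120 (up to 0.109), and PAPPA without each array but RA siLacZ GF120 and RA siRNF20 GF120 (up to 0.272). With all 8 arrays IGFBP5 gave 3.60 and 4.60 and IGFBP2 gave 0.27 and 0.69 in siLacZ and siRNF20 cells, none called.

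Of 20 genes listed for keeping imprints, 18 were measured, and 1 was called lower and 0 higher with RA in each background. It was DNMT3B, a DNA methyltransferase that sets new methylation, which fell by 1.65 (SE 0.19, adjusted p = 0.00115) in siLacZ and 1.16 (SE 0.15, adjusted p = 0.0025) in siRNF20 cells in limma. It read 10.45 to 10.82 on the DMSO arrays and 8.84, 9.82 and 9.42 with RA. The siRNF20 call was kept without each of the 7 arrays in turn. The siLacZ call was kept without each array but RA siLacZ GF120, which cannot be left out as the only array of its group. With all 8 arrays neither was called. DNMT3B is also 1 of the 10 markers of undifferentiated cells whose sum fell. A count of 1 among 18 lies near the background of 3.91% and 3.92% called over all genes with RA.

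The genes whose pattern over the 7 arrays was most like that of H19 were SERPING1 (r = 0.997), EMP1 (0.997), FEZF2 (0.994), GPM6A (0.994) and ATP6V1B1 (0.993), among 636 genes whose values spanned at least 2 log2 units. SERPING1, which encodes the complement C1 inhibitor, read 7.54 to 7.69 with DMSO, 9.58 with RA siLacZ, and 8.77 and 9.13 in RA siRNF20. Like H19 it had no overlap between DMSO and RA arrays and was highest on the RA siLacZ array. For MEST they were UBE2L6 (0.997), TEKT2 (0.99), ANXA2P3 (0.983), MAMDC2 (0.982) and NELL1 (0.978), among 5307 genes that spanned at least 1 unit. UBE2L6, an enzyme that conjugates the ubiquitin-like protein ISG15, read 7.05 and 6.93 in DMSO siLacZ, 7.54 and 7.41 in DMSO siRNF20, 8.20 with RA siLacZ, and 7.99 and 7.84 in RA siRNF20, in the same order of groups as MEST. These genes were picked for likeness out of many, over 7 arrays in 4 groups, and carry no test.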

How the data were processed

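The members and gene lists were chosen with earlier results of these data known. RNA of 8 samples was read on arrays whose rows match the probe sets of the Affymetrix Human Exon 1.0 ST design. The deposited values are linear intensities per array row, and the authors' background correction, normalization and tools are not given in the sources used here. Of 1384231 rows, 354600 carried 1 gene symbol. They were taken as log2 values with no further normalization. Rows with a mean at or below the median row (50th percentile) were dropped, and the median of a gene's remaining rows was its value, for 18732 genes. limma 3.58.1 (R 4.3.3) fitted the 4 group means with an intensity trend and tested 5 contrasts, with Benjamini-Hochberg adjustment over all genes. The script was tested on simulated data. Leaving out the array labelled GF117 RA siLacZ was decided with its values known. No pairing by GF number was assumed, as the meaning of these numbers is not given in the labels. Arrays have no read depth, so their number limits the precision. Named genes were the 10 members and RNF20, called cluster neighbours or otherwise up to 2 a cluster with the largest RA change, up to 6 called genes in each other list, and the 5 genes most like H19 and MEST. Figures used Python 3.11.15 and matplotlib 3.10.9. Alternatives covered the arrays, filter, row summary, offset, normalization, variance model, block and each array left out. For contrasts with RA siLacZ, the GF120 array could not be left out, as it is the only fitted array of that group.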

Additional observations from a re-analysis of the deposited data

How the results depend on the processing

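Of the 8 tested members only PEG3 was called under any setting. With RA in siLacZ, 1 member (PEG3) was called with only the groups compared in the fit, and 0 to 1 without each array in turn. With RA in siRNF20, 1 (PEG3, 1.03, adjusted p = 0.0167 in limma) was called under the stricter filter on dim rows. The other imprinted genes called with RA in siLacZ numbered 2, against 1 with no intensity trend or the stricter filter, 0 with all 8 arrays, and 0 to 5 without each array. In siRNF20 they numbered 6, against 3 with means over rows, 0 with no filter, 1 with no trend, 2 with only the groups compared or the stricter filter, 0 with all 8 arrays, and 0 to 4 without each array. The causes were not tested.

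What arrays of the same GF number share is not given in the labels. The differences between the GF numbers correlated between groups at 0.297, 0.301 and 0.364, all above 0. With the number as a replicate block, the genes called over the whole array were 1792, 1959, 1, 232 and 4 in the order RA in siLacZ, RA in siRNF20, siRNF20 in DMSO, siRNF20 in RA and the difference. Among the members 1 (PEG3, 1.71, adjusted p = 0.00241) was called with RA in siLacZ, and other imprinted genes called were 9 and 12 with RA in siLacZ and siRNF20 and 2 with siRNF20 in RA. RNF20 was called with siRNF20 in DMSO (-1.94, adjusted p = 0.00152) and in RA (-2.19, adjusted p = 0.00287), while MEST with siRNF20 in DMSO was not (1.08, adjusted p = 0.0655). The MEST contrast shares its DMSO arrays with the difference that selected the gene and is not independent of the selection. With the block DLK1 in siLacZ was -0.01 and PEG10 0.01. With all 8 arrays and the replicate block, 0 other imprinted genes were called with RA and the values were those of all 8 arrays.

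Signs turned for the following log2 differences. With means over rows: CDKN1C with RA in siLacZ 0.08, IGF2 in siRNF20 0.01, H19 with siRNF20 in DMSO 0.12, and PEG3 with siRNF20 in RA 0.39 and between responses 0.56. With no filter: in siLacZ CDKN1C 0.25, NNAT 0.40, RTL1 0.30 and USP29 0.63, and in siRNF20 IGF2 0.16. With an offset of 16: in siRNF20 DLK1 0.00 and NNAT 0.06. With quantile normalization: in siRNF20 CDKN1C 0.02 and NNAT 0.04, and in siLacZ PEG10 0.04. With the stricter filter: in siLacZ DDC -0.02, DIO3 -0.48, MEG3 0.41, NNAT 0.16 and PEG3 -0.01, in siRNF20 IGF2 0.30, MEG3 -0.14, NNAT 0.23 and PHLDA2 0.04, with siRNF20 in RA MEG3 -0.25 and PEG3 1.00, and between responses MEG3 -0.55 and PEG3 1.04. With all 8 arrays, with or without the block: in siLacZ DIO3 -0.08, IGF2 1.51, INS 0.22, MEG3 0.45, MESTIT1 0.50, PEG3 -0.52, RB1 -1.29 and RTL1 0.46, with siRNF20 in RA MEG3 -0.36 and PEG3 1.15, and between responses MEG3 -0.41 and PEG3 0.98. Within GF117 with all 8 arrays, in siLacZ: MEST -1.01, RB1 -4.00 and IGFBP2 -0.57.

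Without each array in turn, values with RA in siLacZ ranged over -0.11 to 0.17 (CDKN1C), -0.06 to 0.35 (DDC), -0.09 to 0.76 (DIO3), -0.05 to 0.40 (DLK1), -1.06 to 0.16 (INS), -0.18 to 0.04 (PEG10) and -0.48 to 0.42 (RTL1), and in siRNF20 over -0.38 to 0.13 (CDKN1C), -0.32 to 0.32 (DLK1), -0.44 to 0.19 (IGF2), -0.04 to 0.11 (MEG3) and -0.60 to 0.64 (NNAT). H19 with siRNF20 in DMSO ranged over -0.31 to 0.19. H19 with RA stayed between 5.57 and 6.45 in siLacZ and between 4.11 and 4.97 in siRNF20 cells under every setting run.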
